A study of Danio rerio with 20 samples.

Results

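Regional identity transcription factors are proteins that set which part of the developing brain a neuron belongs to, and many of them stay on in the mature cell. The genes described here came from 16 families, among them LIM homeobox (lhx), LIM-only (lmo), POU, ZIC, MEIS, PBX, NR2F, FEZF, SATB, OTX, PAX, sine oculis homeobox (six1a, six3a and relatives), FOXP, SOX and NFI. They were chosen by the start of the gene name in the deposited count table, with 3 look-alike name stems left out. The rule took 95 rows. Of these, 72 had a mean of at least 1 CPM (a gene's counts relative to the library total) over the 20 cells, and they are called members below. They were 72 of the 14404 genes at that level, in a table of 18820 genes.

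The members belong to a system of positional codes. In vertebrate embryos, gradients of secreted signals divide the forebrain into a dorsal pallium and a ventral subpallium, and combinations of homeodomain, SOX and forkhead proteins hold those divisions. The pallium gives rise mainly to neurons that release glutamate, and in mouse many cortical GABA neurons are born in the subpallium and migrate into the cortex.

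The cells were single neurons from the dorsal pallium of Tg(HuC:H2B-GCaMP6f) zebrafish, 4 to 5 weeks old. In this line the neuronal HuC promoter drives a nuclear calcium sensor, so the sensor marks neurons of many kinds. The paper places the recordings in the central zone of the dorsal pallium (Dc). Every fish had received CAS, the conspecific alarm substance, so both groups were treated and no untreated cell was analysed here. Neurons were drawn into a glass pipette after imaging, 10 whose calcium activity was synchronized and 10 whose activity was not. The question for these genes is whether cells that joined the synchronized activity carried the same regional code as cells that did not. No label names the fish of a cell, so each group is treated as 1 sample. There is therefore no test, and each SD below is the spread between cells.

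Library totals ran from 795838 to 2493351 counts in synchronized cells and from 1131532 to 3144155 in non-synchronized cells. The summed CPM of 10 neuronal genes was at least 5854 in every cell. A list of pallial genes summed to between 705 and 4810 CPM in synchronized cells and between 14.8 and 5211 CPM in non-synchronized cells. The lowest of these, non-synchronized cell 18, thus had little of the labelled region's marker RNA. Genes of more posterior brain regions (hox, en and gbx; 4 of 12 found were measured) summed to at most 104 CPM in any cell. Libraries also held RNA of other cell types. Microglia genes reached 2863 CPM in non-synchronized cell 13 and 1469 in cell 22, against at most 250.3 in a synchronized cell. Red blood cell genes reached 11273 CPM in synchronized cell 5, 15056 in non-synchronized cell 6, 6703 in non-synchronized cell 5 and 1631 in synchronized cell 4-1. These 6 libraries, each above 1000 CPM for either list, were left out in an alternative that kept 8 synchronized and 6 non-synchronized cells. The kept libraries were not free of such RNA. Microglia genes summed to 890 CPM in non-synchronized cell 19-1, and red blood cell genes to 509 CPM in synchronized cell 6. Radial glia genes were no part of this choice. The part of the 6 left-out libraries in the results was not tested beyond that.

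A cell carried only some of the members, and the numbers overlapped between the groups. Synchronized cells had counts for 27 to 46 members with a median of 30.5. Non-synchronized cells had counts for 23 to 47 with a median of 33. After thinning every library to 795838 counts, the medians were 28.7 and 30.9. Of the 72 members, 9 had counts in all 20 cells, 29 had counts in 8 to 19 cells and 34 in fewer than 8. Of all 14404 measured genes, 1627 had counts in all 20 cells and 4638 in fewer than 8. Among the members the class below 8 cells was the largest, and the group means of its genes rest on few cells.

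More members had the higher mean in non-synchronized cells, 45 against 27 in synchronized cells, while all measured genes were split 6930 against 7474. A member was counted as different where the group means, with 1 CPM added to each, differed by at least 2-fold. In that sense 30 of 72 members (41.7%) were higher in non-synchronized cells, where 23.3% of all measured genes were. In the other direction 12 members (16.7%) were higher in synchronized cells, against 26.7% of all genes. Many of these differences came from single cells. In 6 of the 30 members and 2 of the 12, only 1 cell of the higher group had counts. The shares of all genes were not matched for the number of cells with counts, and members were more often found in few cells. With any 1 cell left out, 14 members (19.4%) were still at least 2-fold higher in non-synchronized cells, against 7.21% of all genes, and 4 members (5.56%) in synchronized cells, against 10.8%. Without the 6 libraries rich in other RNA these counts were 6 and 8, against 5.42% and 15.1% of all genes. The median difference of the members in mean log2(CPM + 10), synchronized minus non-synchronized, was -0.12, and that of all genes was 0.11. The ranges of the cells overlapped or met for all 72 members. The same count was not made over all genes, so it does not set the members apart.

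**Figure D1:**
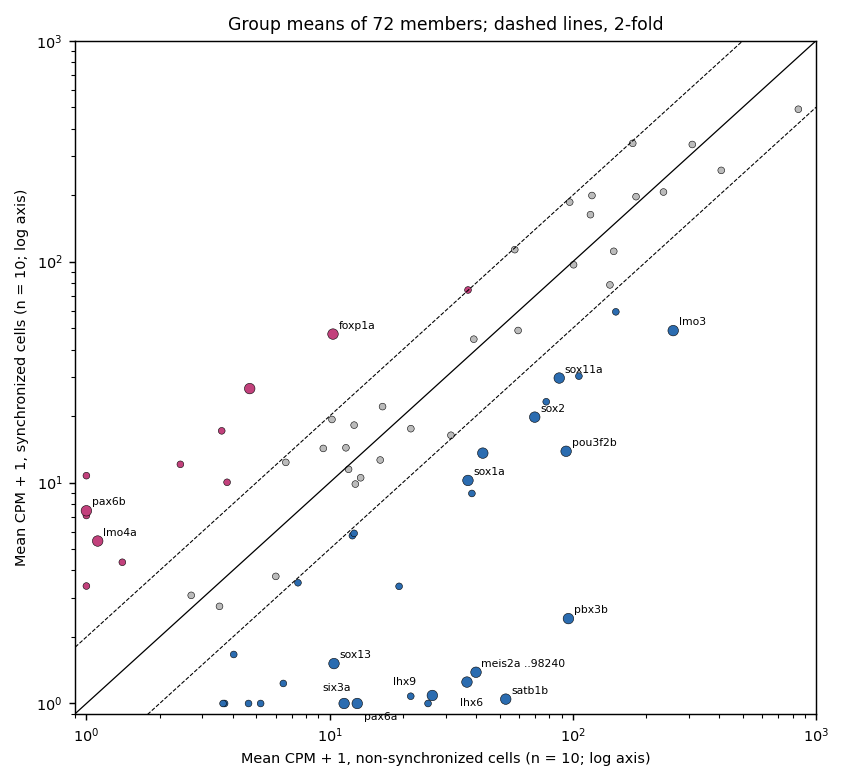
Mean CPM + 1 of each of the 72 members in non-synchronized (x axis) and synchronized cells (y axis), both log axes, n = 10 cells a group. Pink points were at least 2-fold higher in synchronized cells (12), blue points in non-synchronized cells (30), and large points kept that with any 1 cell left out (4 and 14).

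The families divided unevenly. The SOX family was the largest, with 18 measured members. Of these, 11 were at least 2-fold higher in non-synchronized cells and 4 in synchronized cells, beside 23.3% and 26.7% of all genes. With any 1 cell left out, 4 and 0 of the SOX genes were still past 2-fold, beside 7.21% and 10.8% of all genes. All 5 measured lhx genes and both satb genes were at least 2-fold higher in non-synchronized cells, as were six3a and six3b. With any 1 cell left out, 2 of these lhx genes, 1 satb gene and 1 of the six3 genes were still past 2-fold. The lhx2b log2 ratio turned from -1.07 to 1.67 without non-synchronized cell 17, and that of satb1a from -1.11 to 1.00 without cell 15. None of the 4 nfi, 3 nr2f or 2 fezf genes differed by 2-fold. No otx gene was measured. The remaining families had members past 2-fold in both directions or a single gene past it.

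**Figure D2:**
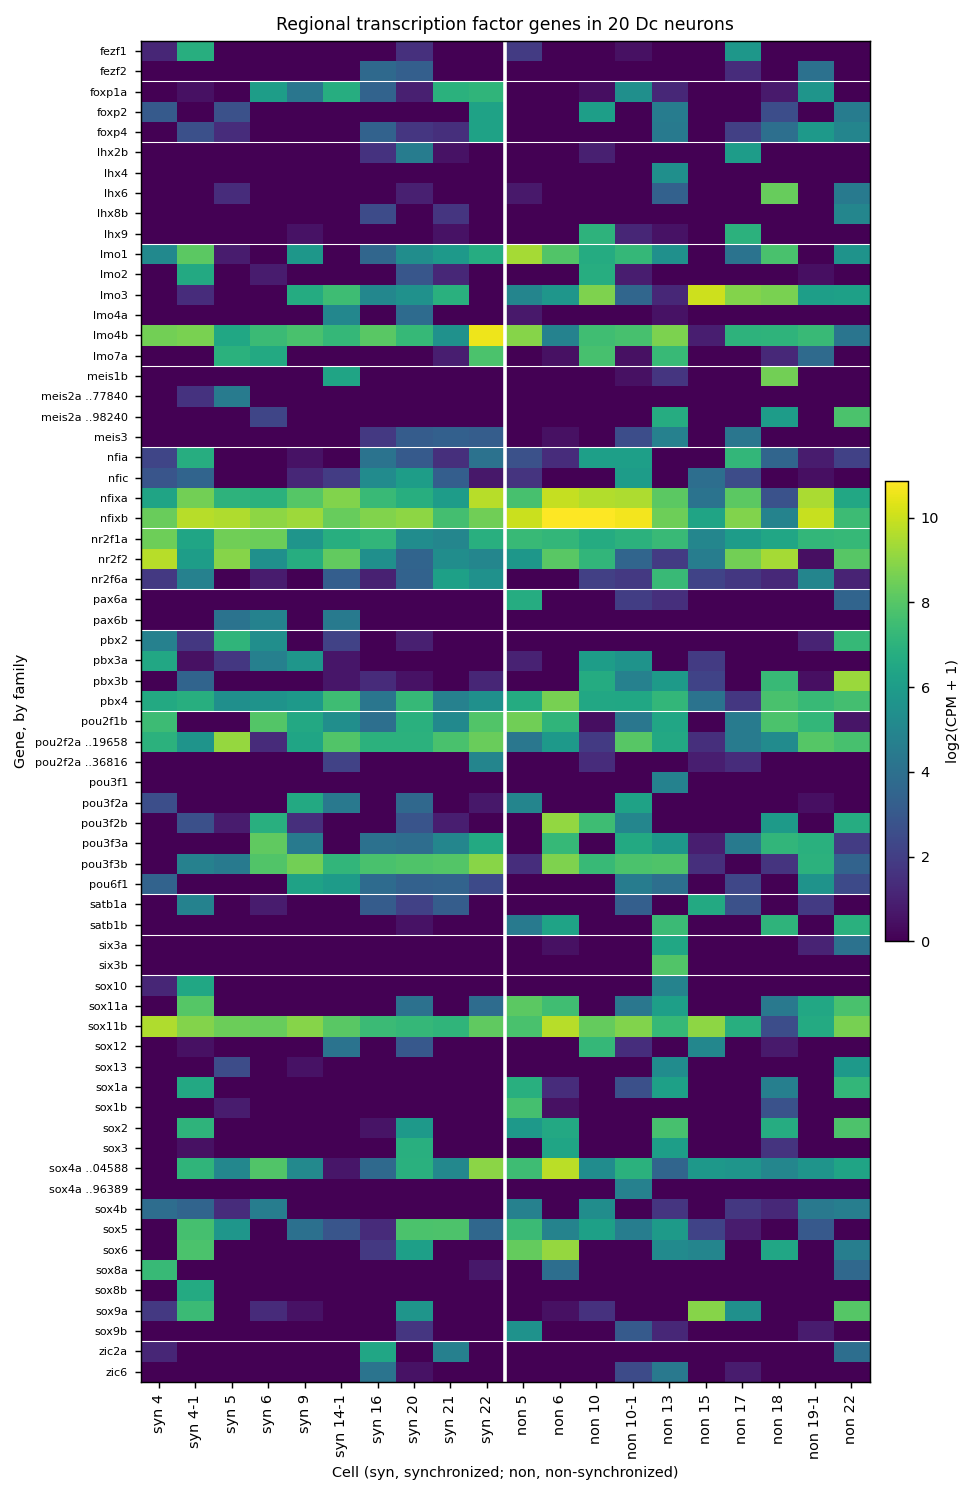
CPM of 66 of the 72 members (rows, by family) in each of the 20 cells (columns; 10 synchronized left of the white line, 10 non-synchronized right of it), as log2(CPM + 1). The 8 of these with counts in every cell form unbroken rows, and most other rows are at 0 in many cells.

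With CPM from library totals, none of the 9 members found in every cell differed by 2-fold. The nuclear receptor genes nr2f1a and nr2f2 (COUP-TF family) and the nuclear factor I genes nfixa and nfixb were among them. In mouse, NR2F1 sets the areas of the cortex and NFIX acts in the maturation of neurons and glia. The mean of nr2f1a was 162 ± 134 CPM (SD, n = 10 cells) in synchronized and 117 ± 45.1 in non-synchronized cells. For nr2f2 the means were 196 ± 271 and 181 ± 218. Each range of nr2f2 was wide, from 10.2 to 839 CPM in synchronized and from 0.376 to 669.7 in non-synchronized cells. The nfix genes had the higher mean in non-synchronized cells but with overlapping ranges. nfixb was at 198 to 826 CPM with a median of 479 in synchronized cells and at 28.2 to 1864 with a median of 721 in non-synchronized cells (means 489 ± 199 and 845 ± 732). nfixa had means of 258 ± 240 and 406 ± 356, and its highest synchronized cell, cell 22 at 838 CPM, stood well above the next at 441. The less widely detected nfia had means of 15.4 and 30.5 CPM, nfic of 13.3 and 8.42, and nr2f6a of 16.5 and 20.6.

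Scaling moved some of these broad genes past 2-fold. The pbx4 log2 ratio of -0.86 from totals became -1.07 under TMM, -1.18 under poscounts and -2.80 under upper-quartile scaling. For nfixa, at -0.65, it was -1.01 with poscounts and -2.47 with upper-quartile scaling, and for nfixb, at -0.79, it was -1.04 and -1.90. The median difference of all genes in mean log2(CPM + 10) moved from 0.11 to 0.07 under TMM, 0.03 under poscounts and -0.10 under upper-quartile scaling. Upper-quartile scaling set some totals far below those counted, which raises the CPM of these cells. It gave non-synchronized cell 15 a total of 107455 in place of 1131532 and cell 6 268637 in place of 2496720. Synchronized cell 5 had 268637 in place of 1272118.

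A SoxC gene, sox11b, was also in every cell, as were lmo4b, pbx4 and pou2f2a. SoxC proteins act in newly formed neurons as they mature. sox11b ranged from 139 to 761 CPM in synchronized cells (median 311, mean 338 ± 190) and from 4.94 to 825 in non-synchronized cells (median 264, mean 309 ± 246). The log2 ratio, synchronized over non-synchronized, was 0.13 and small beside that spread, and it was -1.999 with upper-quartile scaling. Its relative sox4a (ENSDARG00000004588) was in 9 synchronized and 10 non-synchronized cells, with means of 110.4 ± 156 and 146 ± 251.

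The genes satb1b, sox2, sox6, sox1a and sox11a were higher in non-synchronized cells, and they shared some but not all of their cells. All had counts in non-synchronized cells 5, 6, 13, 18 and 22. Only satb1b and sox2 were at 0 in the other 5 cells of that group. In mouse, SATB1 and SOX6 act in the maturation of GABA interneurons born in the subpallium, while SOX1 and SOX2 are SoxB1 proteins best known for keeping neural progenitors undifferentiated. satb1b was at 167 CPM in non-synchronized cell 13, 134 in cell 18, 119.7 in cell 22, 77.7 in cell 6 and 20.9 in cell 5. The other 5 cells were at 0. In synchronized cells there was 1 count in all, in cell 20 (0.465 CPM). The means were 0.0465 and 52.0 ± 66.5 CPM, from 1 and 1040 counts. The pooled ratio was 867-fold, with an exact interval for counting error of 155 to 34285. Detection was in 1 of 10 against 5 of 10 cells. The exact binomial intervals, 0.253 to 44.5% and 18.7 to 81.3%, take cells as independent draws. No label names the fish of a cell, so no comparison of the groups is drawn from them.

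sox2 was found in those same 5 non-synchronized cells, at 226 CPM in cell 22, 209.8 in cell 13, 104 in cell 18, 92.1 in cell 6 and 55.3 in cell 5. Among synchronized cells it was at 132 CPM in cell 4-1, 55.7 in cell 20 and 0.502 in cell 16. The other 7 were at 0. The groups overlapped, with means of 18.8 ± 43.3 and 68.7 ± 88.4 and a log2 ratio of -1.82. With any 1 cell left out that ratio lay between -3.27 and -1.40.

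sox6 had a similar distribution. It was at 561 CPM in non-synchronized cell 6 and 312 in cell 5, then between 23.7 and 86.1 in cells 13, 15, 18 and 22. In synchronized cells it was at 221 CPM in cell 4-1, 70.1 in cell 20 and 2.51 in cell 16. The means were 29.3 ± 70.7 and 105 ± 186 (log2 ratio -1.80). Without non-synchronized cell 6 the ratio was -0.87, below 2-fold.

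For sox1a and sox11a a single synchronized cell carried most of that group's RNA. sox1a was at 92.2 CPM in synchronized cell 4-1 and at 0 in the other 9, and it was in 6 non-synchronized cells at up to 144 CPM, with 1.60 in cell 6 and 5.38 in cell 10-1 (means 9.22 ± 29.2 and 36.0 ± 54.2, log2 ratio -1.86). Without cell 4-1 the log2 ratio was -5.21. sox11a was at 258 CPM in synchronized cell 4-1 and at most 15.8 in any other. It was in 7 non-synchronized cells, with a median of 44.2 and a highest value of 278 CPM. Of these, cell 19-1 was at 89.4, above cells 13 (68.6) and 18 (19.8), and cell 10-1 was at 18.6. The means were 28.7 ± 80.9 and 86.9 ± 102 (log2 ratio -1.56), and without cell 4-1 the ratio was -4.38. sox1b, with means of 0.0786 and 20.6 CPM, was carried by non-synchronized cell 5 at 199.5 CPM. The SoxD gene sox13 was above 5 CPM only in non-synchronized cells 22 (55.7 CPM) and 13 (38.5), both rich in microglia RNA, and without the rich libraries its non-synchronized mean was 0.

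**Figure D3:**
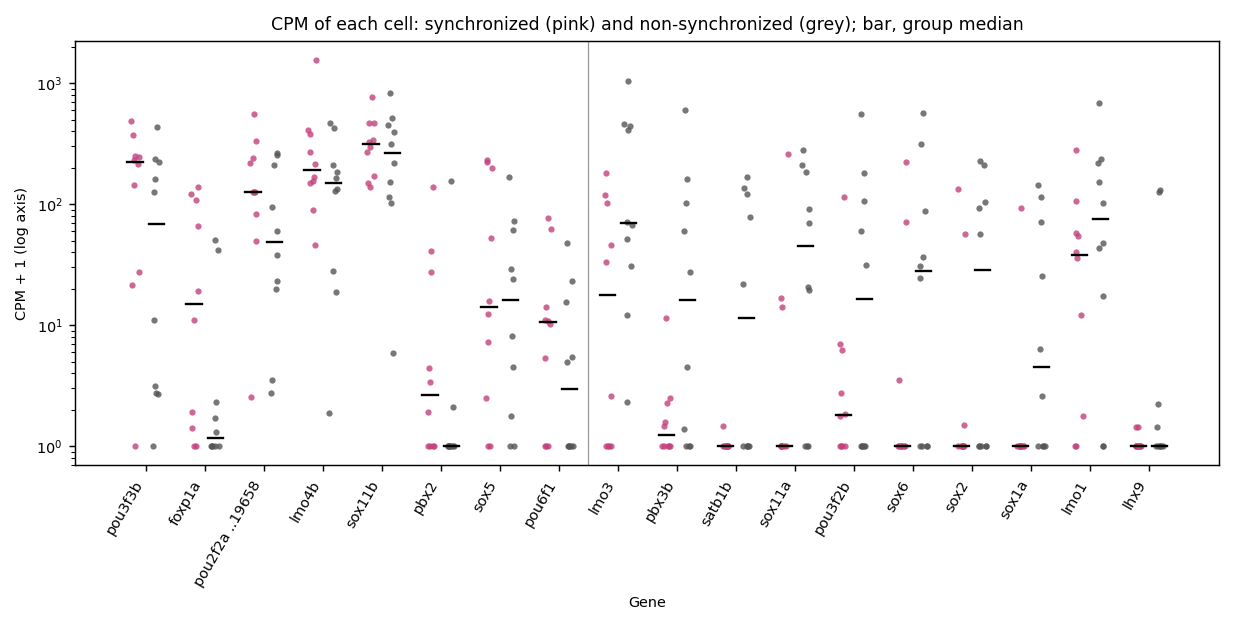
CPM + 1 (log axis) of each synchronized (pink) and non-synchronized (grey) cell for 18 of the 20 members with the largest differences in mean log2(CPM + 10), with the group median as a bar. The 8 genes left of the vertical line were higher in synchronized cells and the 10 right of it in non-synchronized cells, and the groups overlap for every gene.

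Non-synchronized cells 5, 6, 13, 18 and 22 also had the highest sums of GABA genes in their group. The summed CPM of gad1b, gad2 and slc32a1, which encode the enzymes that make GABA and its vesicular transporter, was 4424 in non-synchronized cell 5, 3029.7 in cell 18, 2990.3 in cell 6, 750.2 in cell 13 and 579 in cell 22. It was at most 59.2 in the other 5 non-synchronized cells. In synchronized cells it was 683 in cell 4-1 and at most 13.01 in the rest. The subpallial dlx, gsx2 and arxa genes had their highest sums in the same 5 non-synchronized cells, 499 to 2329.9 CPM, and in synchronized cell 4-1 at 375. All 5 non-synchronized cells with satb1b thus had GABA and subpallial genes, whereas synchronized cell 4-1 had them together with sox1a, sox2, sox6 and sox11a but with satb1b at 0. Some SOX genes were also found in cells with low GABA sums. Non-synchronized cell 19-1 had 89.4 CPM of sox11a and a GABA sum of 1.13. In cell 15 of that group sox6 was at 30.05 CPM beside a sum of 3.54. Synchronized cell 20 had 55.7 CPM of sox2 and 70.1 of sox6 with a GABA sum of 13.01, though its subpallial genes summed to 119 CPM.

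Across all 20 cells the Spearman correlation with the GABA sum was 0.78 for sox6, 0.73 for sox2, 0.62 for sox11a and 0.61 for pbx4. A rho of 0.5 or more was found in 4 of the 38 members with counts in at least 8 cells (10.5%) and in 207 of 9766 genes at that detection (2.12%). The lowest values among members were -0.50 for foxp1a and -0.44 for pou2f2a (ENSDARG00000019658). These values describe 20 points that share libraries and depth, and they pool both groups.

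**Figure D4:**
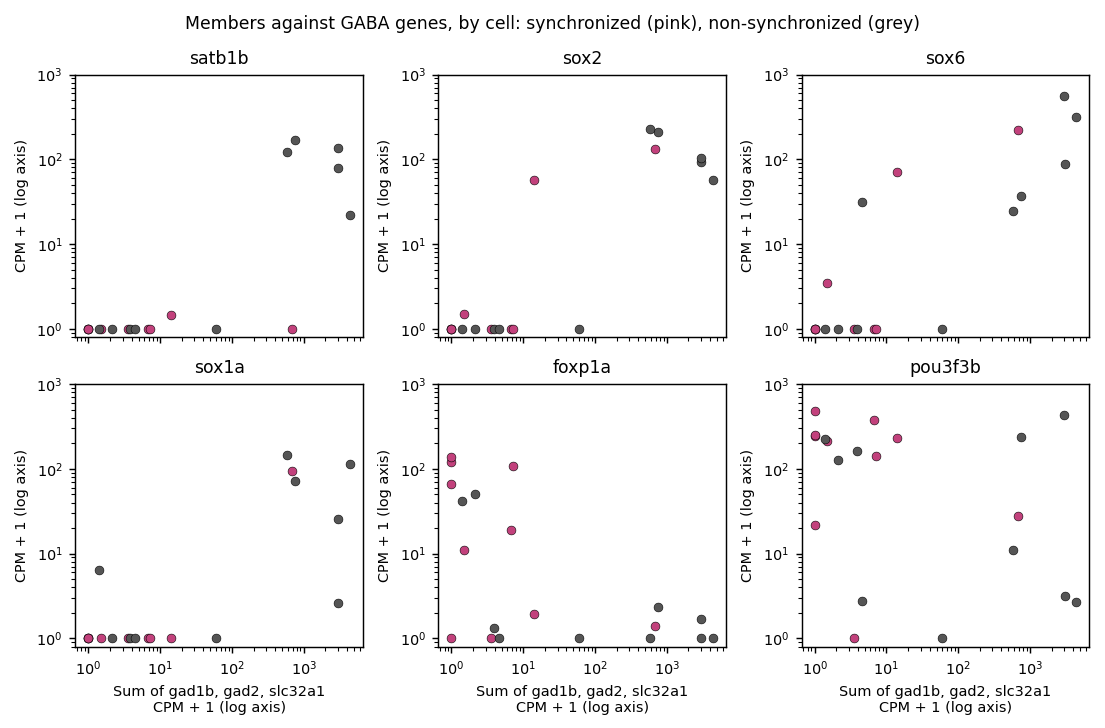
CPM + 1 of 6 members (y axes, log) against the summed CPM + 1 of gad1b, gad2 and slc32a1 (x axes, log) in each synchronized (pink) and non-synchronized (grey) cell. satb1b, sox2, sox6 and sox1a are highest in cells with GABA sums above 500 CPM, while foxp1a is near 0 in those cells.

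Of the 5 non-synchronized cells with satb1b, 4 were among the libraries rich in microglia or red blood cell RNA, and cell 18 was not (31.1 and 18.3 CPM). Radial glia genes summed to 1797.5 CPM in cell 18, where the median of non-synchronized cells was 847, and their part in its values was not tested. Cell 18 on its own held 134 CPM of satb1b, 104 of sox2, 86.1 of sox6 and 24.7 of sox1a. In the 8 and 6 libraries left without the rich ones, satb1b had means of 0.0581 and 22.3 CPM, sox2 of 7.03 and 17.3, sox6 of 9.08 and 19.4, sox11a of 3.62 and 21.3 and sox1a of 0 and 5.01. The direction was thus the same for these 5 genes, although for satb1b and sox2 the non-synchronized mean then came from cell 18 alone.

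Genes of the SoxE group, which act in glia, followed no common direction. SOX10 directs oligodendrocytes and SOX9 acts in astrocytes and radial glia of mouse. sox9a was in 5 cells of each group, with means of 22.2 ± 53.6 and 76.7 ± 159 CPM. Its highest cells were non-synchronized cells 15 (470.2 CPM) and 22 (252) and synchronized cell 4-1 (168). sox10 was at 89.0 CPM in synchronized cell 4-1 and 27.9 in non-synchronized cell 13. sox8a was at 161 CPM in synchronized cell 4, and sox8b was found only in synchronized cell 4-1 (97.5 CPM). Oligodendrocyte genes summed to 559 CPM in synchronized cell 4-1, the highest of the 20 cells, and to at most 186 in any non-synchronized cell. The radial glia list, which includes genes found in every cell, had medians of 622 and 847 CPM. The part of glial RNA in these values was not tested.

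The SOX gene with the higher mean in synchronized cells by more than 2-fold and detection in most cells was sox5. In mouse, SOX5 acts in deep-layer cortical projection neurons. It was in 8 cells of each group, at up to 229 CPM in synchronized and 167 in non-synchronized cells. The means were 73.4 ± 100.03 and 36.1 ± 52.6 (log2 ratio 1.01), but the medians, 13.1 and 15.1, lay the other way. Synchronized cells 4-1, 20 and 21 were between 199 and 229 CPM and set that mean.

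Among the members named by rule, the LIM-only gene lmo3 had the largest difference in mean log2(CPM + 10), -1.88. LIM homeobox proteins bind DNA and recruit the cofactor LDB, whereas LIM-only proteins lack a DNA-binding domain and compete for or bridge the same cofactor. lmo3 was in all 10 non-synchronized cells, from 1.33 to 1041 CPM with a median of 68.5, and in 6 synchronized cells, from 0 to 178 with a median of 16.9. The means were 47.7 ± 63.7 and 258 ± 334. The log2 ratio was -2.41, between -2.92 and -1.82 with any 1 cell left out. Non-synchronized cells 10, 15, 17 and 18 were above 400 CPM, and every synchronized cell was below 200. Of these 4, only cell 18 had a GABA sum above 59.2 CPM. Without the libraries rich in other RNA the means were 59.5 and 404.

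lmo1 was in 8 cells of each group. Its values reached 281 CPM in synchronized cell 4-1 and 679.9 in non-synchronized cell 5, with medians of 37.3 and 74.2. The means were 58.3 ± 85.0 and 149 ± 206 (log2 ratio -1.34), and without non-synchronized cell 5 the ratio was -0.62. These highest cells had GABA sums of 683 and 4424 CPM.

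lmo4b lay in the other direction. In mouse, LMO4 takes part in setting areas and projection types of cortical neurons. lmo4b ranged from 44.8 to 1550 CPM in synchronized cells (median 190.03, mean 342 ± 440) and from 0.884 to 471 in non-synchronized cells (median 148, mean 175 ± 160). The log2 ratio was 0.96, and without synchronized cell 22, the cell at 1550 CPM, it was 0.25. Its copy lmo4a was low, with means of 4.44 and 0.113 CPM from 83 and 3 counts, a pooled ratio of 33.2-fold (exact counting interval 10.97 to 164). lmo2 had means of 10.5 and 10.97. lmo7a (43.6 and 38.2 CPM) meets the name rule but encodes a larger protein of cell junctions, not a LIM-only cofactor.

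lhx6 and lhx9 had nearly all of their counts in a few non-synchronized cells. In mouse, LHX6 directs interneurons of the medial ganglionic eminence, and LHX9 is found in parts of the early pallium and diencephalon. lhx6 was at 326 CPM in non-synchronized cell 18, 20.96 in cell 22, 9.29 in cell 13 and 0.687 in cell 5. No synchronized cell was above 1.57. The log2 ratio was -4.88, and -1.83 without cell 18. All 4 of these cells had satb1b. lhx9 was at 129 CPM in non-synchronized cell 10 and 124 in cell 17, whose GABA sums were 2.86 and 59.2 CPM, and at most 1.24 in any other cell. It had 2 counts in synchronized cells against 566, a pooled ratio of 236-fold (exact counting interval 65.0 to 1953). The remaining lhx genes had non-synchronized means of 3.03 to 6.41 CPM, and each came almost wholly from a single cell.

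PBX and MEIS proteins are homeodomain proteins of the TALE class that bind DNA together and with other homeodomain proteins. pbx3b was in 7 non-synchronized cells at up to 599 CPM (cell 22), with 159 (cell 18) and 102 CPM (cell 10) next, and with a median of 15.003. It was in 5 synchronized cells at no more than 10.4 CPM, with a median of 0.232. The means were 1.42 ± 3.21 and 94.9 ± 185, the log2 ratio was -5.31, and without non-synchronized cell 22 it was -4.04. Without the libraries rich in microglia or red blood cell RNA the means were 0.475 and 48.5.

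With library totals, pbx4, pbx2 and pbx3a did not differ by 2-fold, though pbx4 did under each of the other scalings given above. pbx4, in all 20 cells, ranged from 18.1 to 177 CPM in synchronized (mean 77.5 ± 55.3) and from 2.37 to 399.7 in non-synchronized cells (mean 141 ± 114). pbx2 was at 138 CPM in synchronized cell 5 and 154 in non-synchronized cell 22, with medians of 1.67 and 0. Its log2 ratio of 0.42 was 4.29 without that non-synchronized cell and -0.85 without that synchronized one. Without the rich libraries it was 3.05 (means 8.84 and 0.188). pbx3a had means of 17.2 and 11.6.

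Of the MEIS genes, meis2a (ENSDARG00000098240) was at 221, 106 and 62.8 CPM in non-synchronized cells 22, 13 and 18. Its only synchronized counts were in cell 6 (3.85 CPM). In mouse, MEIS2 is found in striatal and other subpallial neurons, among others. The 3 non-synchronized cells all had satb1b and GABA sums above 500 CPM. The log2 ratio was -4.85, and -3.83 at the least with any 1 cell left out. A second row with the same name (ENSDARG00000077840), named meis2b in the reference gene names, had counts in synchronized cells 4-1 and 5 only, at 2.01 and 22.01 CPM. meis1b rested on single cells: 372 CPM in non-synchronized cell 18 and 79.3 in synchronized cell 14-1, and no more than 2.21 elsewhere. Its log2 ratio of -2.11 became 2.79 without non-synchronized cell 18, so no direction can be given.

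On the synchronized side the largest difference in mean log2(CPM + 10) among the named members was that of pou3f3b, 1.25. POU3F2 and POU3F3 (Brn2 and Brn1) act in upper-layer cortical neurons of mouse. pou3f3b was in 9 cells of each group. It ranged from 0 to 486 CPM with a median of 222 in synchronized cells and from 0 to 430.2 with a median of 67.7 in non-synchronized cells. In 7 synchronized cells it was above 140 CPM, against 4 non-synchronized cells. The means were 198 ± 158 and 119 ± 145, a log2 ratio of 0.73 that does not reach 2-fold and that was -1.74 with upper-quartile scaling. Without the libraries rich in other RNA, the means were 242 and 84.9.

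pou3f2b had the opposite direction. It was at 553, 180.3 and 105 CPM in non-synchronized cells 6, 10 and 22. It was at 114 CPM in synchronized cell 6, with at most 6.04 in any other synchronized cell. The means were 12.9 ± 35.6 and 92.8 ± 172 (log2 ratio -2.76, from -5.16 to -1.62 with any 1 cell left out). It was detected in 6 synchronized and 5 non-synchronized cells. These 5 non-synchronized cells were all at 30.6 CPM or more, and among synchronized cells only cell 6 was.

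pou2f2a (ENSDARG00000019658), an octamer-binding factor also named pou2f2b in the reference gene names, was in every cell. It ranged from 1.54 to 558 CPM in synchronized (median 125, mean 185 ± 162) and from 1.77 to 263 in non-synchronized cells (median 47.6, mean 96.1 ± 105). The log2 ratio was 0.94. pou6f1 had means of 18.3 ± 26.9 and 9.22 ± 15.3 with medians of 9.60 and 1.97. pou2f1b and pou3f3a had log2 ratios of -0.06 and -0.29, and pou3f1 was found in a single non-synchronized cell.

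foxp1a was higher in synchronized cells whichever cell was left out. FOXP1 is a forkhead repressor of mouse deep cortical layers and striatal neurons. It was in 8 synchronized cells, with 138, 121, 107 and 64.6 CPM in cells 22, 21, 14-1 and 6, and a median of 14.05. It was in 5 non-synchronized cells, at 49.9 and 40.9 CPM in cells 19-1 and 10-1 and at most 1.33 in the others, with a median of 0.159. The means were 46.0 ± 56.3 and 9.32 ± 19.2. The log2 ratio was 2.19, from 1.83 to 3.02 with any 1 cell left out, and 1.84 without the libraries rich in other RNA. The cells above 40 CPM in either group had GABA sums of at most 6.27 CPM. foxp2 and foxp4 had log2 ratios of -0.37 and -0.35. With any 1 cell left out these ran from -2.38 to 0.58 and from -2.04 to 0.29, so neither has a direction.

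ZIC proteins are zinc finger factors of the dorsal midline and of the medial forebrain. zic2a was in 3 synchronized cells and 1 non-synchronized cell, with means of 11.1 and 1.43. zic6 had means of 1.75 and 2.53.

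PAX6 and SIX3 genes were found in few cells, each in 1 group only. In mouse, PAX6 marks pallial progenitors and some mature olfactory bulb neurons, and SIX3 acts in the anterior forebrain. pax6a was at 105 CPM in non-synchronized cell 5, 10.5 in cell 22, 2.90 in cell 10-1 and 1.77 in cell 13. All synchronized cells were at 0. Its copy pax6b was at 26.9, 21.1 and 16.5 CPM in synchronized cells 6, 14-1 and 5, and at 0 in all non-synchronized cells. No cell held counts of both. Against a floor of 3 counts over the group, pax6a was at least 93.1-fold higher in non-synchronized cells and pax6b at least 37.2-fold higher in synchronized cells. Counts in 0 of 10 cells allow a share of up to 30.8% if cells are taken as independent draws, which the labels do not show. Detection in 4 of 10 against 0 of 10 is therefore given as counts only, not as a firm difference.

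pax6b was the 1 member with counts in at least 3 synchronized and 0 non-synchronized cells (1.4% of all genes were), and pax6a and six3a were the 2 of the opposite kind (0.653% of all genes). six3a was at 87.2 CPM in non-synchronized cell 13 and 15.999 in cell 22, both rich in microglia RNA, and below 1.2 in 2 further cells. six3b was at 244 CPM in cell 13 and nowhere else. Without the libraries rich in other RNA, the non-synchronized means of pax6a and six3a were 0.483 and 0.188 CPM, so those differences came almost wholly from the rich libraries. pax6b kept a mean of 6.004 CPM against 0.

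fezf1 and fezf2 did not differ by 2-fold. Fezf2 directs subcortical projection neurons in mouse, and it was at or below 15.4 CPM in every cell, with counts in 2 cells of each group. fezf1 was at 110.3 CPM in synchronized cell 4-1 and 52.9 in non-synchronized cell 17. Without these cells the group means were 0.346 and 0.351.

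The genome of fishes was duplicated, so many members come as an a and a b copy, and 12 such pairs are given here. In 7 pairs both copies had the same sign of the log2 ratio and in 5 pairs the signs differed. Both copies passed 2-fold in the same direction for satb1, six3, sox1, sox8 and sox9 and in opposite directions for pax6. In each of the first 5 of these pairs at least 1 copy lost the 2-fold difference or changed sign when 1 cell was left out. Without that cell the ratio was 1.00 for satb1a, 0 for six3b, -0.63 for sox1b, -1.75 for sox8a, 0 for sox8b and -0.55 for sox9a. For lmo4, pbx3, pou3f2 and sox11, 1 copy of the pair was past 2-fold. Copies of other genes were not paired in this way, so these numbers have no background to stand beside. How the authors' counting handled reads that match both copies is not given in the sources used here, so low values of a copy are uncertain.

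**Figure D5:**
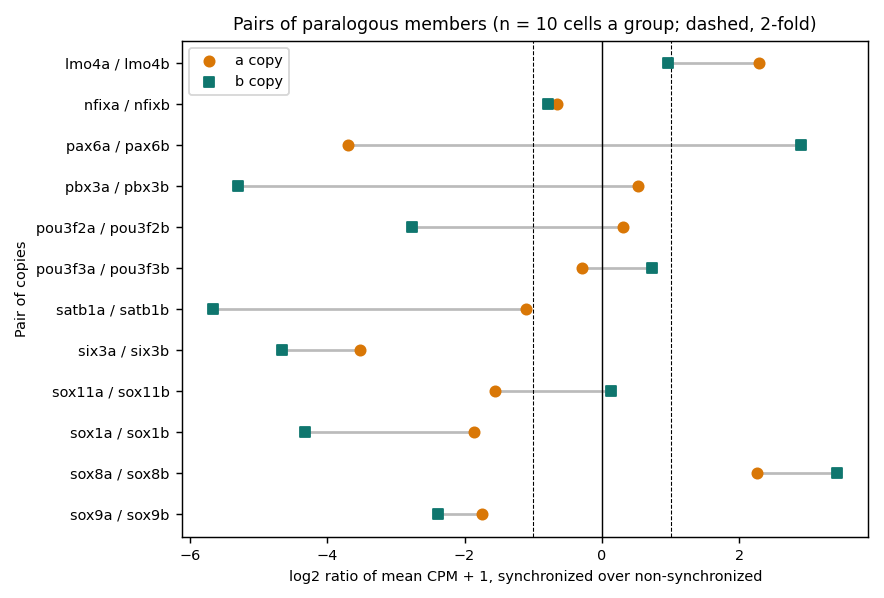
log2 ratio of mean CPM + 1, synchronized over non-synchronized (n = 10 cells a group), for the a copy (orange circles) and b copy (green squares) of 12 pairs, with dashed lines at 2-fold. The copies lie on opposite sides of 0 in 5 pairs, and both lie beyond 2-fold on opposite sides for pax6.

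Members that shared cells were looked for among the 38 with counts in at least 8 cells. Over their 703 pairs the median Spearman rho was 0.01, and 8 pairs were at 0.6 or above. The pair most alike was sox2 with sox6 (rho 0.85). sox11a followed with sox2 (0.73) and sox6 (0.69), and pbx4 with sox11a (0.67) and sox2 (0.60). Outside this set were nfic with satb1a (0.72), nfixa with nfixb (0.68) and foxp1a with pou3f3b (0.66). The lowest were pbx3a with foxp4 (-0.77) and lmo3 with nr2f1a (-0.69). These are descriptions over 20 cells that share libraries and differ in depth. Pairs of all genes were not counted, so the 8 pairs cannot be set against a background.

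Cofactors of these families and other cortical identity genes were measured from a list of partners, 43 genes of 58, 1 of which, lmo7a, is also a member. At least 2-fold differences were found in 12 toward synchronized and 13 toward non-synchronized cells, beside 26.7% and 23.3% of all genes. When any 1 cell was left out these were 4 and 9 of 43, beside 10.8% and 7.21%. Of 8 LIM partners, the LDB genes ldb1b (31.8 ± 31.5 and 110 ± 141 CPM) and ldb2a (21.5 ± 41.0 and 121 ± 198) were higher in non-synchronized cells. The LDB genes ldb1a (102 ± 77.5 and 97.6 ± 68.2) and ldb2b (109 ± 117 and 132 ± 117) did not differ by 2-fold, so the LDB genes had no common direction. rlim, which encodes a ubiquitin ligase that degrades LDB in mouse, had means of 39.9 ± 92.4 and 1.87 ± 2.98. The zinc finger genes bcl11aa (3.16 ± 7.64 and 131 ± 162) and bcl11ba (10.2 ± 27.98 and 123 ± 204) and also tshz1 (16.8 ± 51.9 and 180 ± 198) were higher in non-synchronized cells. They come from the 10 measured cortical identity genes of the list. Of these 10, 6 were at least 2-fold higher in non-synchronized cells and 2, tshz2 and cux2b, in synchronized cells. With any 1 cell left out, 4 and 0 of them were still past 2-fold.

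Groucho corepressors of the TLE family bind several of these factors. Among 12 corepressor genes, 6 were at least 2-fold higher in synchronized cells and 1 in non-synchronized cells, and tle3a was the broadest of the 6, with counts in 10 and 9 cells and means of 65.0 ± 50.8 and 14.5 ± 24.3. All genes stood at 26.7% and 23.3%. With any 1 cell left out, 2 of the 6 and the 1 on the other side were still past 2-fold. The corepressor on the other side was ctbp2a (33.1 ± 34.1 and 135 ± 99.9). Among 7 PBX and MEIS partners, 2 were at least 2-fold higher in synchronized cells and 1 in non-synchronized cells. The Iroquois gene irx3a was in 4 synchronized cells and 0 non-synchronized cells, with a mean of 15.1 ± 38.8 CPM. Of all genes, 1.4% had counts in at least 3 synchronized and 0 non-synchronized cells. The gene on the other side, irx1b, had counts in 1 non-synchronized cell only (group mean 5.76 CPM).

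The 23 rows under the 1 CPM limit had means of 0.0172 to 0.759, and 16 of them had counts in a single cell. They included all 3 otx genes, which mark the forebrain and midbrain of the embryo, 5 of 7 pax genes, 3 of 6 nr2f genes and 3 of the 5 sine oculis homeobox rows (six1a among them). Just under the limit were sox19a at 0.759 and six1a at 0.708, and just over it were meis2a (ENSDARG00000077840) at 1.201 and sox4a (ENSDARG00000096389) at 1.32. At such levels a cell with no count may still have carried the RNA.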

How the data were processed

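The authors deposited raw counts per gene for 20 single-neuron libraries, not normalized. The labels describe TruSeq stranded mRNA libraries, read as 75 bp pairs. The submitters' processing notes name danRer11 and edgeR 3.14.0. No aligner or counter is given in the sources used here. CPM was computed here from library totals, which ran from 795838 to 3144155. Values are mean CPM ± SD over cells, and the log2 ratio was taken after adding 1 CPM to each mean. Intervals are exact at 95%. Those of pooled ratios cover counting error only, and those of detection shares are binomial over the 10 cells of a group. The floor for 0 counts was 3 counts. Doublets were not called. Libraries sharing a label number, synchronized 4 and 4-1 and non-synchronized 10 and 10-1, differed by a chi-square of 131 and 193 for each degree of freedom (88 other pairs: 79.6 to 335). They were counted as separate cells. The chi-square cannot decide this, because no pair known to come from the same cell was there to compare. The labels do not explain the suffix.

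The families, partner and marker lists were chosen with earlier results of these data known. Genes named with values were the 10 each way that differed most in mean log2(CPM + 10), given counts in 4 or more cells on the higher side, the highest member of each family and the 6 found in most cells. Some genes of these families are not reported here, though counts over the members include those that were measured. Any other gene named was chosen after its values were seen. Gene names are those of the deposited table, where 3 names occur on 2 measured rows each. All 95 IDs occur in the reference gene names. Alternatives were TMM (edgeR 4.0.16), poscounts size factors (DESeq2 1.42.0) and upper-quartile scaling, other minimums and added values, medians, means of logs, summed counts, and left-out libraries. Scripts ran in Python 3.11.15 with numpy 2.4.6, pandas 2.3.3 and scipy 1.17.1. The scripts were tested on simulated data, where unchanged genes also passed 2-fold.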

Additional observations from a re-analysis of the deposited data

Results flagged for a closer look

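For 27 members named by the rule, the highest and lowest cell of each group were compared with the rest of the group. In 27 of 54 groups the highest cell lay apart, its gap to the next above 0.466 of the group's range, where chance gives about 1 in 20 groups for normally distributed values. Single-cell counts with many zeros are not normally distributed. Where only 1 cell of a group has counts, the gap is the whole range, so that outcome was fixed beforehand. This was so for satb1b, sox1a and meis1b in synchronized cells and for six3b in non-synchronized cells. The 1 in 20 is therefore no measure for these groups. Synchronized cell 4-1 stood apart for sox11a (258 CPM), sox6 (221), sox2 (132), sox1a (92.2), lmo1 (281), fezf1 (110.3) and pbx3b (10.4). Synchronized cell 5 did so for pbx2 (138), and cell 22 for lmo4b (1550) and nfixa (838). The others in that group were cell 4 for sox11b (761), cell 6 for pou3f2b (114), cell 14-1 for meis1b (79.3) and cell 20 for satb1b (0.465).

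Among non-synchronized cells, cell 5 stood apart for lmo1 (679.9 CPM), sox5 (167) and pax6a (105), and cell 6 for pou3f2b (553) and pbx4 (399.7). Cell 22 did so for pbx3b (599) and pbx2 (154), cell 15 for lmo3 (1041), and cell 18 for lhx6 (326) and meis1b (372). The rest were six3b in cell 13 (244), fezf1 in cell 17 (52.9) and pou6f1 in cell 19-1 (46.9).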

How the results depend on the processing

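The counts of members depended on the summary used. The 30 members higher in non-synchronized cells became 11 with group medians and 17 with means of log2(CPM + 1), where 9.79% and 9.53% of all genes were called. The 12 higher in synchronized cells became 6 of the 55 members with a mean of at least 5 CPM. The share of all genes was not recomputed at that minimum. With 10 CPM added they became 3 of 72, where 11.1% of all genes were called. With any 1 cell left out, the 14 on the non-synchronized side became 6 with medians and 9 with means of logs. Of all genes, 5.48% and 4.17% were still called there. The same 14 became 7 with 10 CPM added and 6 without the libraries rich in other RNA, beside 2.51% and 5.42% of all genes. The 4 on the synchronized side became 2 at 5 CPM, 1 with 10 CPM added and 8 without the rich libraries. With 10 CPM added and without the rich libraries, the shares of all genes were 3.55% and 15.1%. Without those libraries, 24 members were past 2-fold toward non-synchronized and 15 toward synchronized cells, beside 20.7% and 31.4% of all genes. The members' median difference was then 0, and that of all genes was 0.14. TMM gave 30 members toward non-synchronized and 11 toward synchronized cells, beside 25.3% and 24.9% of all genes. Poscounts gave 34 and 11, beside 27.9% and 23.95%. Upper-quartile scaling gave 41 and 13, beside 44.8% and 23.3%. With library totals the shares of all genes were 23.3% and 26.7%, so they moved with the scaling too. Upper-quartile scaling put pou3f3b at -1.74 and sox11b at -1.999 in place of 0.73 and 0.13. Leaving out 1 cell gave 27 to 33 and 12 to 17, beside 22.1% to 25.2% and 25.5% to 28.7% of all genes. sox5 turned from a log2 ratio of 1.01 to -0.19 with medians, and meis1b ran from -5.27 to 2.79 when 1 cell was left out. Of 351 values for 27 named genes under the other alternatives, 320 moved by less than the spread between cells. Changes of the minimum CPM could not move a gene's ratio, so part of that count was fixed beforehand. The spread was also wide, and the move of pou3f3b from 0.73 to -1.74 counted as smaller than it. The count is therefore no measure of how stable the ratios are. No paired analysis was possible because no label names the fish of a cell, and the result comes from no test. With 10 cells a group taken as independent draws, detection in 0 of 10 allows up to 30.8%.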
